A study of Mus musculus with 2 samples.

Results

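The genes described here encode the main proteins of mouse milk. They are 5 caseins (Csn1s1, Csn1s2a, Csn1s2b, Csn2 and Csn3), the whey proteins Wap and Lalba, the mucin-like Glycam1 and Muc15, and Btn1a1 of the milk fat globule membrane. They were chosen by gene symbol, and all 10 were found among the 16906 genes of the deposited table. RNA was sequenced from mammary luminal cells, enriched by fluorescence-activated sorting, of C57BL/6 mice aged 8 weeks. Both groups were homozygous for a floxed miR-200c/141 cluster (miR-200c/141-flox/flox) and received tamoxifen. The mice of the group called CKO also carried K8-CreERT2, a tamoxifen-activated Cre under the keratin 8 promoter, and those of the group called Ctrl did not, so an effect of the Cre driver and an effect of the deletion cannot be told apart. The labels put the harvest at 4 weeks after tamoxifen in one place and at 3 days in another, and which one holds is not known. Each group was 1 low-input library from about 20000 cells, and how many mice each came from is not stated. No value below has a replicate, and every ratio compares the 2 libraries and not the genotypes.

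Caseins are the phosphoproteins that form the calcium-carrying micelles of milk, and whey proteins stay soluble. Their genes are switched on in alveolar luminal cells in pregnancy and lactation, when prolactin acts through its receptor, JAK2 and the transcription factor STAT5, together with glucocorticoids. In the virgin gland most are expressed at low levels, in part of the luminal progenitor cells.

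The deleted microRNAs have closely related seeds, the bases with which a microRNA pairs to its targets. Both are shown so that the 3' UTRs of the milk protein genes can be read against them. They are given 5′ to 3′ with the seed (bases 2 to 8) in capitals, from RefSeq on GRCm38.p6, where both lie on the minus strand of chromosome 6, at chr6:124718324-124718346 for miR-200c-3p and at chr6:124717917-124717938 for miR-141-3p.
miR-200c-3p: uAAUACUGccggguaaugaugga
miR-141-3p: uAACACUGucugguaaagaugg

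The level of the microRNAs themselves is not analysed here. On the sense strand of a transcript, a 7-base match to the seed of miR-200c-3p reads CAGTATT. One to that of miR-141-3p reads CAGTGTT. In the longest 3' UTR of each gene (GENCODE M21, GRCm38), 2 of the 10 milk protein genes held a match to either and 8 did not. Of 11153 measured genes with a 3' UTR, 30.1% held one. The 3' UTRs of the milk protein genes were 131 to 2106 bases long, where the median of the measured genes was 1166. Both matches are shown on the plus strand with 11 bases on either side and the match in capitals.
Csn1s2b, match to miR-200c-3p at chr5:87817707-87817713: aattattccaaCAGTATTctctcttcaaa
Csn3, match to miR-141-3p at chr5:87932084-87932090: aatgaagcaatCAGTGTTcaatcgtatgt

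The Csn1s2b match lay in 1 of the 4 annotated coding transcripts of that gene and the Csn3 match in 1 of 3. These 3' UTRs, 1368 bases in Csn1s2b and 1001 in Csn3, were longer than the transcript lengths deposited with the expression values, 733 and 877. Whether the transcripts with the matches were present in these cells is not known. A match is a description of the letters and not a measured site.

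Expression was deposited as FPKM, a read pair density corrected for transcript length and sequencing depth, with a floor of 0.01 for genes without reads. The libraries held an estimated 12500000 (Ctrl) and 11400000 (CKO) read pairs on genes. In such bulk RNA, fewer cells of a type and less RNA per cell cannot be told apart.

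The milk protein genes differed widely in level. Csn3 alone made up 88.5% of their summed FPKM in Ctrl and 91.4% in CKO. In Ctrl the order from the highest was Csn3, Muc15, Lalba, Csn1s1, Btn1a1, Wap, Csn2, then Csn1s2a and Csn1s2b with the same value, and Glycam1 last. In CKO the first 5 kept this order, and Glycam1, Csn2, Wap, Csn1s2b and Csn1s2a followed. The spread between animals is unknown, so neighbours in this order cannot be ranked beyond counting error.

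**Figure D1:**
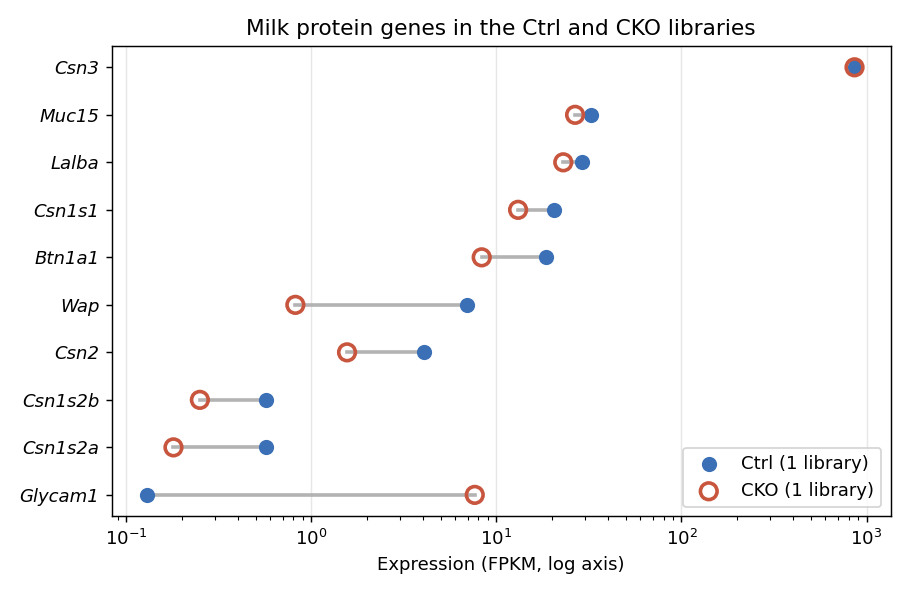
Expression of the 10 milk protein genes in FPKM on a log axis, with 1 filled point for the Ctrl library and 1 open point for the CKO library, ordered by the Ctrl value. Csn3 lies at 867.36 and 861.06 FPKM, all other genes lie below 33, and Glycam1 is the one gene whose CKO point lies to the right of its Ctrl point.

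Genes whose mean over both libraries reached 1 FPKM are called measured. A measured gene was counted as higher or lower in CKO with a ratio of at least 1.5-fold on FPKM + 0.5 and a 95% counting interval of its read ratio that excluded equality. The interval is exact (Clopper-Pearson, conditional on the reads of both libraries) and covers counting error only, since PCR copies are not independent molecules. Of the 10 genes 8 were measured. Of these, 1 was higher in CKO (Glycam1) where 2.24% of the 11667 measured genes were, and 4 were lower (Wap, Csn2, Btn1a1 and Csn1s1) where 3.01% of them were. The other 3 (Csn3, Lalba and Muc15) were called in neither direction. Over the 8 measured the median log2 ratio of CKO to Ctrl was -0.48, beside -0.03 over all measured genes. By any amount, 9 of 10 were lower in CKO, as were 54.2% of all 16906 genes and 54.8% of the measured ones. The authors' deposited table called 1 of them up (Glycam1) and 3 down (Wap, Csn2 and Btn1a1), beside 0.615% and 0.639% of all genes.

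By the same rule, all 11 luminal epithelial markers looked at were measured and 1, Krt18, was higher in CKO (6606.79 FPKM in Ctrl and 10398.4 in CKO). Genes listed as markers of other cells were present and not equal, and how particular each is to its cell type was not tested. Of 12 measured basal cell markers 7 were higher, beside 2.24% of all measured genes, among them Krt14 (44.49 and 90.79 FPKM), Acta2 (33.68 and 66.72), Tagln (26.92 and 46.9) and Myh11 (4.91 and 9.71). Trp63, a basal transcription factor, was lower (2.96 and 1.05). Of the measured basal markers not called, Mylk (2.22 and 3.35) and Sparc (17.57 and 26.49) stood above Ctrl in CKO. Procr (10.69 and 9.82) and Cdh3 (1.7 and 1.61) stood below it. Of 10 measured myeloid markers 4 were higher: Cd74 (17.98 and 34.79), H2-Ab1 (9.89 and 17.19), H2-Aa (6.1 and 9.94) and S100a8 (7.09 and 13.79). The other measured ones were not called. Cd68 (8.49 and 9.97), Lyz2 (4.42 and 6.57), C1qa (0.91 and 1.73) and Csf1r (0.89 and 1.12) stood above Ctrl in CKO. C1qb (1.69 and 1.34) and C1qc (1.38 and 0.62) stood below it, as did Adgre1 (0.25 and 0.14) and Itgam (0.52 and 0.35), which were not measured. The 14 basal markers summed to 190.7 FPKM in Ctrl and 331.7 in CKO and the 12 myeloid markers to 59.61 and 97.55, and none of either stood at the floor. Of hormone-sensing luminal markers Ly6a was higher (138.17 and 220.18) and Prom1 lower (48.96 and 28.63). Of 4 measured adipocyte markers Pparg was lower (1.43 and 0.59) and met the limit of 1 FPKM through Ctrl alone. The other measured ones, Lipe (24.33 and 34.59), Fabp4 (33.36 and 44.19) and Cidea (13.64 and 17.33), stood above Ctrl in CKO and were not called. Cfd (0.36 and 0.1), Plin1 (0.17 and 0.05), Cidec (0.14 and 0.1) and Plin4 (0.6 and 0.53) were not measured and stood below Ctrl in CKO. No fibroblast marker was called, with Dcn at 25.57 and 30.74, Col3a1 at 4.13 and 4.24, Col1a1 at 4.14 and 3.67 and Col1a2 at 4.24 and 3.22. Below the limit, Pdgfrb was listed at 0.46 and 0.56, Pdgfra at 1.05 and 0.31 and Lum at 1.16 and 0.38. Without the limit, 2 fibroblast markers, Pdgfra and Lum, would be counted lower. The part of these cells in the differences below was not tested.

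Of the caseins, Csn1s1 and Csn2 were lower in CKO, Csn3 was level, and Csn1s2a and Csn1s2b were too low to measure. The 5 genes lie within one cluster on chromosome 5 (positions from RefSeq, GRCm38.p6).

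Csn1s1 (gene ID 12990, chr5:87666208-87682578) encodes an alpha-S1 casein, which in the endoplasmic reticulum helps the export of the other caseins. It stood at 20.4 FPKM in Ctrl and 13.1 in CKO, about 369 and 217 read pairs. The CKO value was 1.56-fold lower (interval 1.31 to 1.85), just past the 1.5-fold limit, and the log2 ratio was -0.62. The authors' deposited table did not call Csn1s1, though its false discovery rate there lay below that of Csn2, which was called.

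Csn2 (gene ID 12991, chr5:87692619-87699429) encodes beta-casein, an abundant casein of milk and a common reporter of prolactin action. It was listed at 4.07 FPKM in Ctrl and 1.56 in CKO, from 56 and 19 read pairs. The CKO value was 2.61-fold lower (interval 1.58 to 4.81), a log2 ratio of -1.15. In the authors' deposited table its false discovery rate, from their test of 1 library against the other, was 0.000751.

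Csn3 (gene ID 12994, chr5:87925579-87932550) encodes kappa-casein, which coats the micelle and keeps it in solution. Its level was 867.36 FPKM in Ctrl, rank 81 of all genes, and 861.06 in CKO, rank 93. With about 9507 and 8640 read pairs its log2 ratio was -0.01, and it turned to 0.02 when the median of all measured genes was taken off. The interval of the read ratio ran from 0.964 to 1.02, so a change of 1.5-fold between these libraries lay outside counting error. Csn3 was 42.5-fold above Csn1s1 per length in Ctrl and 65.7-fold in CKO.

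Csn1s2a (gene ID 12993, chr5:87774450-87788798) and Csn1s2b (gene ID 12992, chr5:87808121-87824421) encode alpha-S2-like caseins, and are paralogs. Csn1s2a was listed at 0.57 FPKM in Ctrl and 0.18 in CKO, from 7 and 2 read pairs. Csn1s2b was listed at 0.57 and 0.25 FPKM, from 5 and 2. A difference was not detectable at this depth in either: the log2 intervals ran from -4.98 to 0.71 and from -4.59 to 1.42. How the authors' counting shared reads between them is not given in the sources used here.

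The sum over the caseins was mostly Csn3 and differed little. The 5 caseins summed to 892.97 FPKM in Ctrl and 876.15 in CKO, a log2 ratio of -0.03 (interval of the summed reads -0.08 to 0.01). Without Csn3 the other 4 summed to 25.61 and 15.09 FPKM, a log2 ratio of -0.74 (-0.97 to -0.51).

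**Figure D2:**
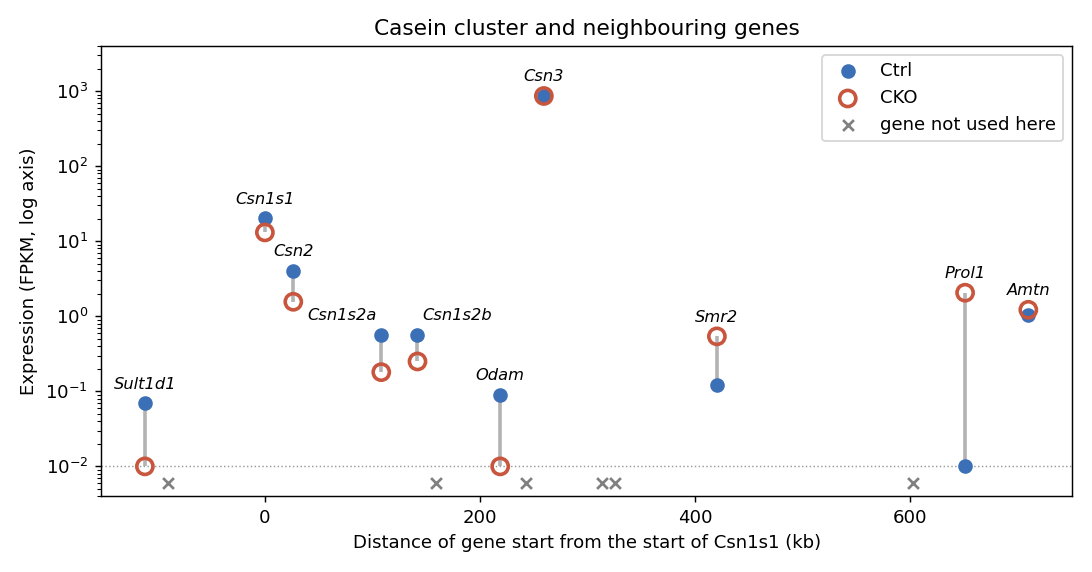
Expression in FPKM on a log axis of the caseins and their neighbours, against the distance of each gene's start from the start of Csn1s1 in kb. Filled points are the Ctrl library, open points the CKO library, crosses genes not used here, and the dotted line the floor of 0.01 FPKM. Csn1s1 and Csn2 lie higher in Ctrl, both points of Csn3 fall together, and Prol1 leaves the floor in CKO.

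From Csn1s1 through Csn2 to Csn1s2a and Csn1s2b the Ctrl level went from 20.4 to 4.07 and then 0.57 FPKM, before the high Csn3. Odam, an enamel protein gene before Csn3, was listed at 0.09 FPKM in Ctrl and at the floor of 0.01 in CKO. On the far side of Csn3 lie genes of saliva and tooth. Smr2, 420.3 kb from the start of Csn1s1, was listed at 0.12 and 0.54 FPKM. Prol1, 651.1 kb away, a gene of lacrimal and salivary secretion, had 0 read pairs in Ctrl and about 27 in CKO (0.01 and 2.06 FPKM). It was counted higher, met the limit of 1 FPKM through CKO alone, and the counting interval of its log2 ratio began at 2.93. Amtn, an enamel gene 709.9 kb away, was listed at 1.04 and 1.22.

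The promoters of Csn1s1 and Csn2 are shown because prolactin-activated STAT5 is known to bind the sequence TTCNNNGAA, which reads the same on both strands. Of 6 milk protein genes with an entry among the RefSeq promoter windows (GRCm38.p6), 3 held it within the 250 bases before the start: Csn1s1, Csn2 and Glycam1. Csn1s2a, Lalba and Wap did not. For Lalba the bases searched lay inside the gene span given below, so the letters before that span were not searched. Over all 32851 such windows the share was 7.02%. The 150 bases before the start are printed 5′ to 3′ on the strand of the gene, with the motif in capitals: the plus strand at chr5:87666058-87666207 for Csn1s1 and the minus strand at chr5:87699426-87699575 for Csn2.
Csn1s1: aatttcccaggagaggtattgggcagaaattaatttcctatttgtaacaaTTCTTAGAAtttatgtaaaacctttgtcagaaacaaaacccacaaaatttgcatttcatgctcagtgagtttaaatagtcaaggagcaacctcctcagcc
Csn2: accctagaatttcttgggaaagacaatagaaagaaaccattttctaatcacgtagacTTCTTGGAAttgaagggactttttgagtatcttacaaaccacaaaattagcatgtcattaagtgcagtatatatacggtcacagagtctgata

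The motif began 100 bases before the start of Csn1s1 and 93 before that of Csn2. The motif was thus found before 2 genes that were lower in CKO and before Glycam1, which was higher. Binding was not measured here.

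Of the whey proteins, Wap was lower in CKO by the widest fold among the milk protein genes counted lower, and Lalba was not called. Wap (gene ID 22373, chr11:6635483-6638654) encodes whey acidic protein, a major whey protein of rodents and a marker of late pregnancy and lactation. It was listed at 6.9 FPKM in Ctrl and 0.82 in CKO, from 46 and 5 read pairs. The CKO value was 8.41-fold lower, with an interval of 3.36 to 27.2 that reflects the few reads. On FPKM + 0.5 the log2 ratio was -2.49. Wap met the limit of 1 FPKM through Ctrl alone. In the authors' deposited table its false discovery rate was 1.68e-07.

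The Wap promoter, on the minus strand at chr11:6638650-6638799, is shown because Wap had the lowest ratio of the milk protein genes and its window held no such motif.
Wap: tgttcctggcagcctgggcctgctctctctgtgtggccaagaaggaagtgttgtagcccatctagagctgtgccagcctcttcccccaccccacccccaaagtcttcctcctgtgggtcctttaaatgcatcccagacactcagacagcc

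That the motif is not found says only that these letters are not in the window searched.

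Lalba (gene ID 16770, chr15:98480400-98482934) encodes alpha-lactalbumin, which binds the galactosyltransferase B4galt1 to make lactose synthase. It stood at 29.09 FPKM in Ctrl and 22.98 in CKO, from 258 and 186 read pairs. The CKO value was 1.27-fold lower (interval 1.05 to 1.54), short of the 1.5-fold limit. Its log2 ratio was -0.33, and the false discovery rate in the authors' deposited table was 0.0564. Lalba and Wap are both whey genes, but their intervals did not meet: the read ratio of Wap was at most 0.298 and that of Lalba at least 0.649.

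Glycam1 was the one milk protein gene higher in CKO. Glycam1 (gene ID 14663, chr15:103562759-103565081) encodes a small secreted mucin-like protein, which is made in lactating mammary epithelium and also, as a ligand of L-selectin, by high endothelial venules of lymph nodes. It was listed at 0.13 FPKM in Ctrl and 7.64 in CKO, from 1 and 54 read pairs. With a single read pair in Ctrl, the ratio of 58.8 carried an interval from 10.1 to 2373. On FPKM + 0.5 its log2 ratio was 3.69, and its rank moved from 14420 to 7299. It met the limit of 1 FPKM through CKO alone. In the authors' deposited table its false discovery rate was 5.97e-15.

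The Glycam1 promoter, on the minus strand at chr15:103565082-103565231, is shown for the motif that it shares with Csn1s1 and Csn2, here 145 bases before the start.
Glycam1: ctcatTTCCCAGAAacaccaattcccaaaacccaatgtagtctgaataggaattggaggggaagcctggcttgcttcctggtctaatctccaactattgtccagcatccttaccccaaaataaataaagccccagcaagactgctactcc

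Of the markers of endothelium and of high endothelial venules, some were higher in CKO and most were not called. The 15 markers summed to 58.36 FPKM in Ctrl and 73.8 in CKO, and none stood at the floor. Of 12 measured, 3 were higher in CKO and none lower, beside 2.24% and 3.01% of all measured genes. The 3 were Ccl21a, a lymphoid chemokine, at 0.68 and 5.92 FPKM (about 7 and 59 read pairs), Enpp2 at 0.67 and 1.36, and Ackr1 at 2.74 and 4.76. Ccl21a has near-identical copies in the mouse genome, so its value is uncertain. Ccl21a and Enpp2 met the limit of 1 FPKM through CKO alone. The most abundant of the list, the selectins Selp (20.76 and 23.85 FPKM) and Sele (8.62 and 12.91), were not called. Neither were the endothelial genes Pecam1 (4.48 and 6.1), Cdh5 (3.78 and 3.93) and Vwf (9.98 and 8.52). Of the venule genes, Madcam1 (0.35 and 0.31) and Fut7 (0.14 and 0.05) were below the limit. The lymphocyte markers, 11 in all, summed to 3.15 FPKM in Ctrl and 4.4 in CKO. The 1 of them that was measured, Ltb, was higher in CKO at 0.65 and 1.98 FPKM, from 9 and 25 read pairs. Ltb too met the limit of 1 FPKM through CKO alone. The rise in Ltb alone was larger than that of the whole sum. The others lay under the limit, went in both directions and together did not rise. The part of these cells in the Glycam1 value was not tested.

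**Figure D3:**
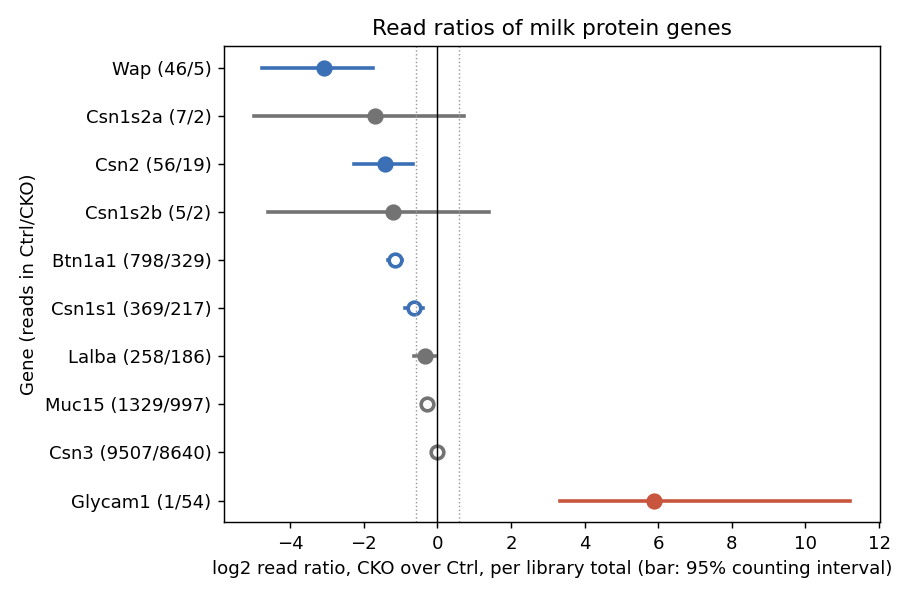
Log2 read ratio of CKO over Ctrl for each milk protein gene, scaled by the library totals, with its 95% counting interval as a bar and the read pairs in Ctrl and CKO after its name. Filled points rest on recovered whole reads, open points on estimated reads, colour marks genes counted higher or lower, and dotted lines mark 1.5-fold. The bar of Glycam1 lies wholly above the upper line, those of Wap, Csn2 and Btn1a1 wholly below the lower line, and those of Csn1s2a and Csn1s2b cross zero.

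Of the membrane proteins, Btn1a1 was lower in CKO and Muc15 was not called. Btn1a1 (gene ID 12231, chr13:23456984-23465914) encodes butyrophilin, a protein of the apical membrane that wraps milk fat droplets at secretion. It stood at 18.47 FPKM in Ctrl and 8.33 in CKO, about 798 and 329 read pairs. The CKO value was 2.22-fold lower (interval 1.95 to 2.53), a log2 ratio of -1.10. Its rank moved from 4288 to 6994. In the authors' deposited table its false discovery rate was 7.57e-35, the lowest of the 10 genes.

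Muc15 (gene ID 269328, chr2:110721494-110739537) encodes a transmembrane mucin found on the milk fat globule. It stood at 32.47 FPKM in Ctrl and 26.62 in CKO, about 1329 and 997 read pairs. The CKO value was 1.22-fold lower (interval 1.12 to 1.33), so the interval excluded equality while the ratio stayed under 1.5-fold. Muc15 too had no call in the authors' deposited table, with a false discovery rate below that of Csn2. The gene lies inside the span of Ano3, a membrane protein gene listed at 0.04 and 0.01 FPKM. Whether the counting used strand is not given in the sources used here. Without strand, reads from bases that exons of both genes share cannot be told apart. Whether their exons share any bases was not looked at.

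Together the 10 genes summed to 980.03 FPKM in Ctrl and 942.54 in CKO, a log2 ratio of -0.06. The interval of the summed reads, in which long transcripts weigh more than in FPKM, ran from -0.15 to -0.08. Without Csn3 the other 9 summed to 112.67 and 81.48 FPKM, a log2 ratio of -0.47 (interval of the summed reads -0.62 to -0.45).

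**Figure D4:**
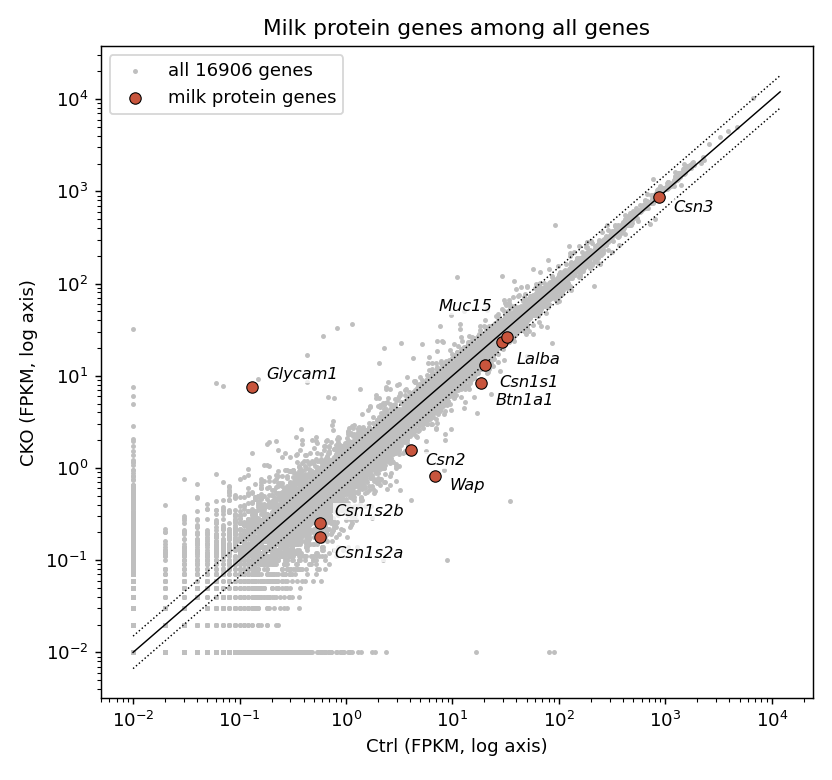
Expression of all 16906 genes in CKO against Ctrl, in FPKM on log axes, with the milk protein genes marked. The solid line is equality and the dotted lines 1.5-fold. Csn3 lies on the line near the upper end, Wap and Btn1a1 below it, and Glycam1 far above it.

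The genes next to the milk protein genes were mostly called in neither direction. Among the 2 nearest protein-coding genes on each side of each locus were 26 that are not milk protein genes. Of these 16 were used, 8 were measured, none was higher in CKO and 1 was lower, beside 2.24% and 3.01% of all measured genes. That one, Ramp3, lies 19.9 kb from Wap and encodes an accessory protein of calcitonin-family receptors. Ramp3 stood at 9.43 FPKM in Ctrl and 4.99 in CKO, from 147 and 71 read pairs, a log2 ratio of -0.86 (interval -1.35 to -0.50). On the other side of Wap, Tbrg4, 9.4 kb away, was listed at 21.78 and 25.62, and Nacad at 1.39 and 0.85. Kansl2, 34.7 kb from Lalba, was listed at 30.01 and 29.31, and Pde1b, 32.7 kb from Glycam1, at 1.43 and 0.94. Around Btn1a1, Abt1 was listed at 6.18 and 6.07, H4c8 at 9.04 and 11.34, Zfp322a at 2.27 and 1.6, and the related Btn2a2, 11.1 kb away, at 0.12 and 0.06.

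Genes that act on the milk protein genes or beside them were described by lists, read against the same 2.24% and 3.01% of measured genes. Of 20 lactogenic signalling genes, all measured, none was counted higher or lower, and their median log2 ratio was -0.09. Prlr, the prolactin receptor, stood at 217.83 FPKM in Ctrl and 177.09 in CKO. Stat5a was at 31.12 and 30.97, Stat5b at 14.81 and 13.19, and Elf5, an alveolar transcription factor, at 21.36 and 17.78. Cebpb, a transcription factor of casein promoters, was at 241.14 and 284.09. Each of these stayed under 1.5-fold.

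Lactose synthesis genes, 12 in all and all measured, had none counted in either direction and a median of -0.10. B4galt1, the partner of Lalba in lactose synthase, stood at 45.59 and 40.14 FPKM, Slc2a1, a glucose transporter, at 181.07 and 163.5, and Hk1, a hexokinase, at 55.09 and 53.7. Of 15 measured genes of mineral transport and casein phosphorylation none was called either (median -0.04). Fam20c, the kinase that phosphorylates caseins, was listed at 3.59 and 4.24 FPKM, Slc5a5, the iodide transporter, at 103.41 and 109.06, and Atp2b1, a calcium pump, at 56.79 and 52.18.

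Genes of milk fat and its globule went in both directions. Of 21 measured, 3 were higher in CKO and 1 lower, with a median of 0.01. Fabp3, a fatty acid carrier of lactating gland, was listed at 0.19 FPKM in Ctrl and 1.91 in CKO from 1 and 14 read pairs, so that its log2 ratio of 1.80 carried an interval from 1.22 to 9.34, and it met the limit of 1 FPKM through CKO alone. Dgat2, which makes triglyceride, stood at 42.36 and 75.66 FPKM and was higher. Olah, which ends fatty acid chains at medium length, was higher at 1.12 and 2.38. Scd1, a fatty acid desaturase, was lower at 100.26 and 64.54.

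Other secreted proteins of milk, 16 measured, had 1 higher and 1 lower (median 0.13). Trf, transferrin, was lower in CKO at 715.71 FPKM in Ctrl and 444.01, and Apoe was higher at 97.79 and 155.15. Relatives of the milk proteins were looked at as well. Of 6 measured genes with a WAP domain outside Wap, 1 was higher (Slpi, a protease inhibitor, 14.81 and 22.98 FPKM) and none lower, and Wfdc18 stood at 404.33 and 409.01. The 1 measured gene related to Btn1a1, Vtcn1, was at 6.29 and 6.76, and Ermap, below the limit, at 0.24 and 0.41. Among 8 measured mucins Prol1 was the one counted higher and none was lower, with Muc1 at 48.55 and 39.84. Lyz2, a lysozyme and so a structural relative of Lalba, was listed at 4.42 and 6.57 and Lyzl4 at 5.01 and 5.96, and neither was called.

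Alveolar and progenitor markers, a list of 14 that holds 3 of the milk protein genes (Csn2, Csn3 and Lalba), had none higher and 2 lower (Csn2 and Trf), with a median of 0.05. It summed to 4317 FPKM in Ctrl and 4476 in CKO.

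**Figure D5:**
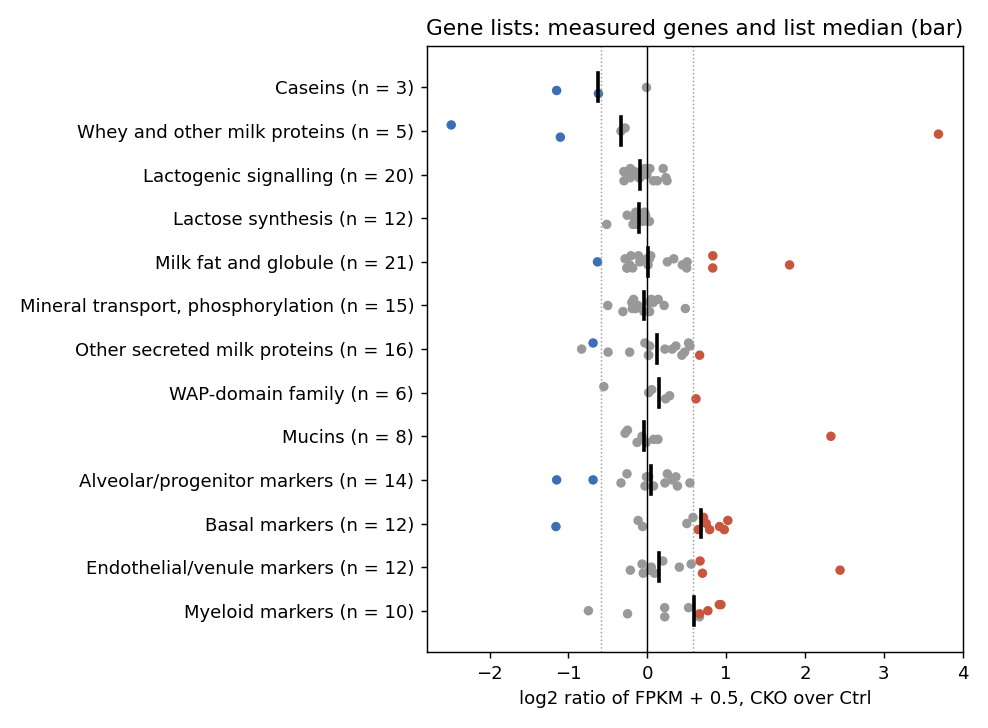
Log2 ratio of FPKM + 0.5, CKO over Ctrl, for every measured gene of 13 lists, with 1 point a gene and a bar at the list median. Colour marks genes counted higher or lower and dotted lines mark 1.5-fold. The basal markers have a median of 0.68, while lactogenic signalling and lactose synthesis lie within the dotted lines.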

How the data were processed

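RNA of 1 Ctrl and 1 CKO library was quantified by the authors. HISAT, Bowtie2, RSEM and mm10 are named, without versions or settings, per the submitters' processing notes. The deposited FPKM have no unit in their header. Multiplied by length in kilobases they summed to 999609 and 999909, as FPKM do by construction. The deposited log2 values equalled the log2 ratio of these FPKM within rounding, and the deposited p-values and false discovery rates come from the authors' test of 1 library's reads against the other's. Rounding to 2 decimals blurs genes near the floor.

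From these, log2((CKO + 0.5)/(Ctrl + 0.5)) was computed without further scaling (Python 3.11.15, pandas 2.3.3, scipy 1.17.1). Because the deposited p-value depends on the reads of both libraries and the share of CKO (0.478), whole reads were sought that return it. Exactly 1 pair was found for 14203 of 14941 genes tried (95.1%), Csn1s2a, Csn1s2b and Lalba among them. Genes with p-values below 0.0001, printed with fewer digits, were not tried in that step. Nor were genes with an estimated 4000 or more read pairs in either library, Csn3 among them. For the milk protein genes with p-values below 0.0001 a separate search was made. It kept a pair only if it was the only one and altered p-values returned at most 0.1 pairs on average. The pairs of Csn2, Wap and Glycam1 come from it. For Csn1s1, Csn3, Btn1a1 and Muc15 reads were estimated from FPKM, length and the totals. The recovery of reads across all genes was tested on simulated data, and the separate search was not. With 1 library in each group, no test over samples could be made.

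The genes and lists were chosen with earlier results of these data known. Named are all 10 genes, their measured neighbours, and from each list up to 5 genes counted higher or lower, otherwise the 2 most abundant. Stat5a, Stat5b, Elf5, B4galt1, Fam20c, Muc1, Wfdc18, Pecam1, Cdh5, Vwf, Selp, Sele, Madcam1, Fut7, Odam, Ano3, Btn2a2, Smr2 and Amtn were added for their roles or positions, after their values were seen. Further basal, adipocyte, fibroblast and myeloid markers were also added after their values were seen, to show more of their lists.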

Additional observations from a re-analysis of the deposited data

How the results depend on the processing

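Of the 50 ratios of single milk protein genes under other pseudocounts (0.1 and 1), median centring and the other settings tried, 49 kept their sign; the exception was Csn3 under centring. The ratio of 1 gene, Glycam1, left its counting interval (log2 3.34 to 11.2), at 2.94 with a pseudocount of 1 and 3.22 with values not divided by length, and stayed counted higher. The counts of milk protein genes, 1 higher and 4 lower, changed under a stricter minimum of 5 FPKM, to 0 higher and 2 lower, where fewer genes enter by construction; at 2-fold 3 were lower, without Csn1s1. Among all genes, 261 higher and 351 lower became 143 and 117 with that minimum and 87 and 64 at 2-fold, and 224 were lower with a pseudocount of 1. Leaving out Csn3 moved the summed caseins from -0.03 to -0.74 and the summed milk protein genes from -0.06 to -0.47. Of 336 counts over lists, 30 moved. No paired analysis was possible because each group has 1 library, and for the same reason none could be left out. Reads limit Csn1s2a, Csn1s2b, Wap in CKO and Glycam1 in Ctrl.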

Other observations

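The deposited annotation of 2 milk protein genes, Csn2 and Csn3, carries terms of the COP9 signalosome, whose subunits have been given the same symbols. The gene identifiers in those rows are the ones RefSeq gives to the caseins, and all 10 milk protein genes matched RefSeq by identifier and symbol. The signalosome genes have rows of their own: Cops2 was listed at 25.87 FPKM (Ctrl) and 26.13 FPKM (CKO), Cops3 at 28.66 and 32.35 FPKM. Neither was counted higher or lower.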
